A study of Homo sapiens with 12 samples.

Results

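The regions described here are the weak insulin receptor (IR) peaks at start sites: IR ChIP-seq peaks that lay at most 1000 bases from the nearest annotated transcription start site and carried a peak score of 79 or less. They were selected on these values, the distance and the score, both taken from the deposited peak annotation, and the rule was met by 475 of 1971 peaks (24.1%). Another 591 peaks met the distance limit with a higher score. The peaks came from 1 ChIP-seq library of HepG2, a human hepatocellular carcinoma cell line, and so carry no replicate error. The gene expression beside them came from RNA-seq of the same cell line at 0, 5, 10, 30 and 240 min of 3 nM insulin, with 2 libraries at each time. The treatment text of the ChIP library in the labels also gives 3 nM insulin, without a time. Protocol texts of RNA and ChIP samples stand under each other's samples in the labels, so whether this text belongs to the ChIP library is uncertain. The paper's ChIP-seq methods name no insulin treatment. No group carried a genetic change. Per the study's methods the RNA-seq was done once, on independent biological samples. The p-values below thus rest on the spread between such samples of 1 experiment, estimated over all 10 libraries in 1 model.

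Insulin binds IR at the cell surface, and the activated receptor kinase signals through its substrates to the PI3K and ERK pathways. A fraction of the receptor has been found in the nucleus and at chromatin, where promoters are the main place it is detected. In liver cells insulin raises genes of lipid synthesis and growth and lowers genes of glucose output. IR has no known DNA-binding domain, so peaks at a promoter are usually read as contact through other proteins that bind there, such as transcription factors and RNA polymerase II.

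The windows below are the 300 bases round the centre of 8 member peaks, shown because the genes at them gave the 3 largest rises and the 3 largest falls at 240 min among member genes of at least 5 CPM without overlap, and, for NFKBIA, a rise already at 30 min. They were read from GRCh37, the same build as hg19 to which the peaks belong. Capitals mark exact matches, on either strand, to any of 13 short motifs of promoter-binding factors.
LINC01521, chr22:31742238-31742537, plus strand: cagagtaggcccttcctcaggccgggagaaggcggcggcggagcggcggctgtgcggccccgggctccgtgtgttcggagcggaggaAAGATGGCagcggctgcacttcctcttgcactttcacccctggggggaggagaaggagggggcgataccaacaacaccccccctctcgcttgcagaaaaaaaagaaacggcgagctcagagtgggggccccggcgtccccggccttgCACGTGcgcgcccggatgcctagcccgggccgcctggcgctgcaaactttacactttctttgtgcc
TTC6, chr14:38064816-38065115, plus strand: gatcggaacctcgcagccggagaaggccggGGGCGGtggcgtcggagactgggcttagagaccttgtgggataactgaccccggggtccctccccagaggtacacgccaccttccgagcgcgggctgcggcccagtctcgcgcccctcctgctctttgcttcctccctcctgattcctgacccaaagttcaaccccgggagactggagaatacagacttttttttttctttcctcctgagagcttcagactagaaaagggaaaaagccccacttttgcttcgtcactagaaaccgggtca
C4orf46, chr4:159593042-159593341, plus strand: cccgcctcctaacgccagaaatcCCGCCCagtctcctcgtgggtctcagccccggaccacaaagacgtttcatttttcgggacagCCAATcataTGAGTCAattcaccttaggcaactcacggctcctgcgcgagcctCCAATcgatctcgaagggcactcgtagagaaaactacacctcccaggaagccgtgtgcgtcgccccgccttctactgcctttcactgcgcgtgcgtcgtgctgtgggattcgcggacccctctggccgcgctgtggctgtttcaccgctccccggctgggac
KLHL24, chr3:183353288-183353587, plus strand: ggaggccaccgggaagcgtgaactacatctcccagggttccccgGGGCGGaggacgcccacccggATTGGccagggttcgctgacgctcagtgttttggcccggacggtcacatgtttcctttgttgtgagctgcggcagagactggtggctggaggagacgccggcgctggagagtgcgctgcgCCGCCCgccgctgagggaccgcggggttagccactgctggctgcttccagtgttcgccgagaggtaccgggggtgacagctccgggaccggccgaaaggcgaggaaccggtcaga
ZNF345, chr19:37341122-37341421, plus strand: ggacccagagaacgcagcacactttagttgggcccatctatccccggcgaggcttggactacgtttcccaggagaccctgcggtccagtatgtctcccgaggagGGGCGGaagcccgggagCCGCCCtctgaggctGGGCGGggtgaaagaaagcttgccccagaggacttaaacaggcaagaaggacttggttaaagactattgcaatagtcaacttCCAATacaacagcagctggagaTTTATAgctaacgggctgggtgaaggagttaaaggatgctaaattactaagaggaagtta
RXRB, chr6:33167861-33168160, plus strand: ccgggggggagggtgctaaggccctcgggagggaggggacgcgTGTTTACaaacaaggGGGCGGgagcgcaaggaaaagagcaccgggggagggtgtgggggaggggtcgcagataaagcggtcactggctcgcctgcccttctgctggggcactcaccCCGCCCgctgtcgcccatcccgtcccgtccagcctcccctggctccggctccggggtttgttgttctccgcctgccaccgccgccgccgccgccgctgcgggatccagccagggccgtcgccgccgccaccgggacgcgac
NFKBIA, chr14:35873102-35873401, plus strand: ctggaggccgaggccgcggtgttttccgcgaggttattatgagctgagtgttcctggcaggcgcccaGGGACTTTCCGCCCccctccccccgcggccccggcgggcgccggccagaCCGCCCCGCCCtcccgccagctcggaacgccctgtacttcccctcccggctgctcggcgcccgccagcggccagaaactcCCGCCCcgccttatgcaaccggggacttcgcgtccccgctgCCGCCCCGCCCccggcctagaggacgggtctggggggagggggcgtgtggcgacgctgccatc
NFKBIA, chr14:35873759-35874058, plus strand: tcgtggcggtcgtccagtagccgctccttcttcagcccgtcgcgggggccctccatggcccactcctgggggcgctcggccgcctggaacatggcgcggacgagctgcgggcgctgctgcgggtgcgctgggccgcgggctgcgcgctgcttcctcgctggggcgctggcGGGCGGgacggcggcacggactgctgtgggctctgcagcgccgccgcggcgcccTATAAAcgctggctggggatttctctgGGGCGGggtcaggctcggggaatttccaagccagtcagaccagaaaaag

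Each of these windows held at least 1 match. The C4orf46 window carried 2 CCAAT boxes and an AP-1 motif beside 1 GC box, and the KLHL24 window 2 GC boxes and 1 CCAAT box. The first NFKBIA window, centred 696 bases from the start site, held a match to the NF-kappaB motif GGGACTTTC, whose last letter was shared with 1 of its 6 GC boxes, 2 pairs of which also overlap by a letter. That motif was found in 2 of the 475 member windows (0.421%) and in 0.327% of windows round all coding start sites. A start site of FOXA1, a pioneer factor of liver genes, lies within 1 kb of the centre of the TTC6 peak. One of PATZ1, a zinc finger regulator, lies within 1 kb of the centre of the LINC01521 peak. The printed windows need not hold these start sites.

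The member scores ran from 13 to 79 with a median of 45, and those of the other start-site peaks from 80 to 12437 with a median of 241. Just inside the limit, 3 peaks scored 79, those at MARK4, GGNBP2 and RP11-547D24.3. Just outside it, 6 peaks scored 80, among them those at ING4, XRCC3 and PA2G4. The 35 members that scored 75 to 79 had a median width of 415 bases and a median GC content of 69.3%, and the 15 peaks that scored 80 to 84 had 421 bases and 71.0%. The median level of the nearest genes was 31.1 TPM (a level corrected for transcript length and so comparable between genes) just inside the limit and 16.6 TPM just outside it.

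Member peaks were spread more evenly about the start site, whereas the higher-scoring peaks sat mainly before it. Of the members, 276 (58.1%) were centred upstream of the start site, compared with 432 of 591 (73.1%) of the higher-scoring peaks. The median distance was 188 bases for members and 145 bases for the others, and 52.4% of members lay within 200 bases against 63.1%. Distance and score are the values the peaks were selected on, so these shares are a description. Member peaks were also narrower, with a median width of 400 bases (range 288 to 1309) against 558 bases, although width is measured on the same signal as the score. HOMER, the annotation tool used by the authors, placed 433 members (91.2%) in its promoter class, 21 in introns, 15 in exons and 6 at gene ends. A start site of GENCODE lay within 1 kb of 471 of the 475 members, and a pair of start sites on opposite strands at 207 (43.6%), about as often as at the higher-scoring peaks (45.5%).

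**Figure D1:**
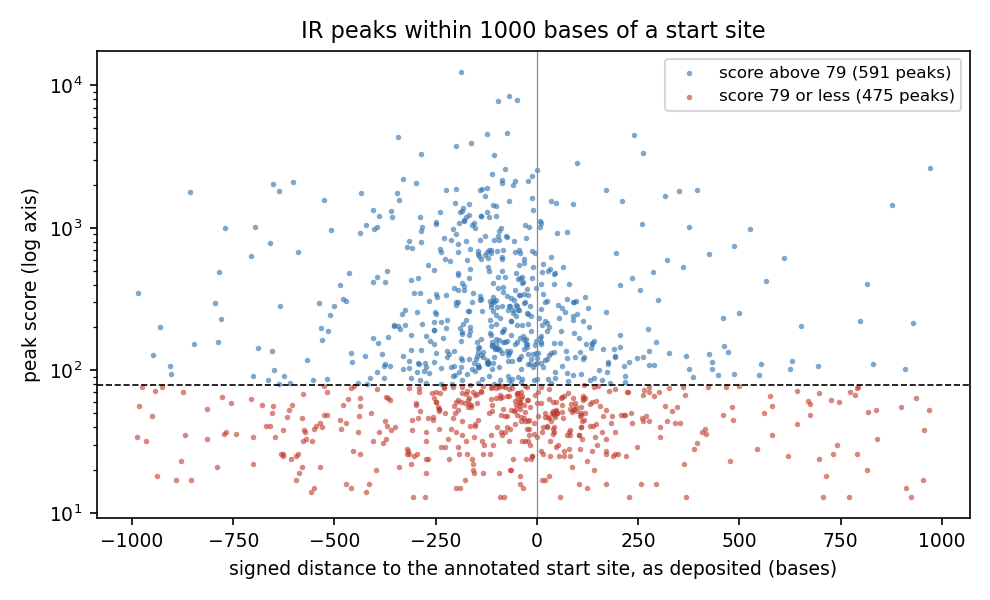
Peak score on a log axis against the deposited signed distance to the start site in bases, negative upstream, for IR peaks within 1000 bases of a start site, with a dashed line at the score limit. The 475 member peaks below the line spread to both sides of the start site, and the 591 peaks above it gather upstream, 73.1% of them at negative distances.

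The sequence under the members differed from that under the higher-scoring peaks most in one motif. ZNF143 is a zinc finger factor that binds promoters and takes part in promoter contacts, and the core of its best-known site reads ACTACAA. This core was present in 17 of 475 member windows (3.58%, 95% Wilson interval 2.25 to 5.66) and in 200 of 591 windows of higher-scoring peaks (33.8%, 30.1 to 37.7). Intervals treat peaks as independent and cover counting error only. Among windows of the same length round 19869 coding start sites it occurred in 2.6%, and round the 11153 start sites of genes expressed in these cells in 3.07%. The member share taken as a whole was thus close to that of promoters at large, and the share at higher-scoring peaks was far above it.

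The share with the ZNF143 core climbed with the score over the whole range and not at the limit alone. It was 0 of 114 peaks at scores 13 to 29, which allows a share of up to 2.63% (3 counts), 2.54% at 30 to 44, 4.13% at 45 to 59 and 7.38% at 60 to 79. The share at 60 to 79 (interval 3.93 to 13.4) lay above the 3.07% of expressed start sites. Past the limit the share went from 18.2% at 80 to 149 to 54.3% at 1000 and above. A second ZNF143 string in which 2 letters may be any base, ACANNTCCC, was added after the windows had been seen. It is not a looser form of the core, need not match where the core does, and was not among the 13 motifs marked above. The printed C4orf46 and KLHL24 windows hold this second string unmarked. It gave 9.05% of members (6.79 to 12) and 52.1% of higher-scoring peaks (48.1 to 56.1). Round all coding start sites it gave 6.63%, and round expressed ones 7.3%. Over the member score classes, from low to high, it gave 3.51%, 6.78%, 12.4% and 13.1%. Where the core occurred in a member window it lay a median of 94.5 bases from the peak centre, compared with 45 bases in higher-scoring peaks. Within 50 bases of the centre it was found at 5 of 17 members with a match and at 106 of 200 other peaks with a match.

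GC boxes, GGGCGG, the sites of SP and KLF factors, ran the other way. They were present in 381 member windows (80.2%, 76.4 to 83.5), in 68.7% (64.8 to 72.3) of windows of higher-scoring peaks and in 73.9% (73.1 to 74.7) of windows round expressed start sites. Members at scores 13 to 29 held one in 86.0%, and peaks at 1000 and above in 63.0%. GC content moved with this: its median was 71.0% in member windows, 64.7% in those of higher-scoring peaks and 69.0% round expressed start sites, and its part in the GC box share was not tested. A member window held 2.29 GC boxes on average, overlapping ones included, against 1.47 in higher-scoring peaks.

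**Figure D2:**
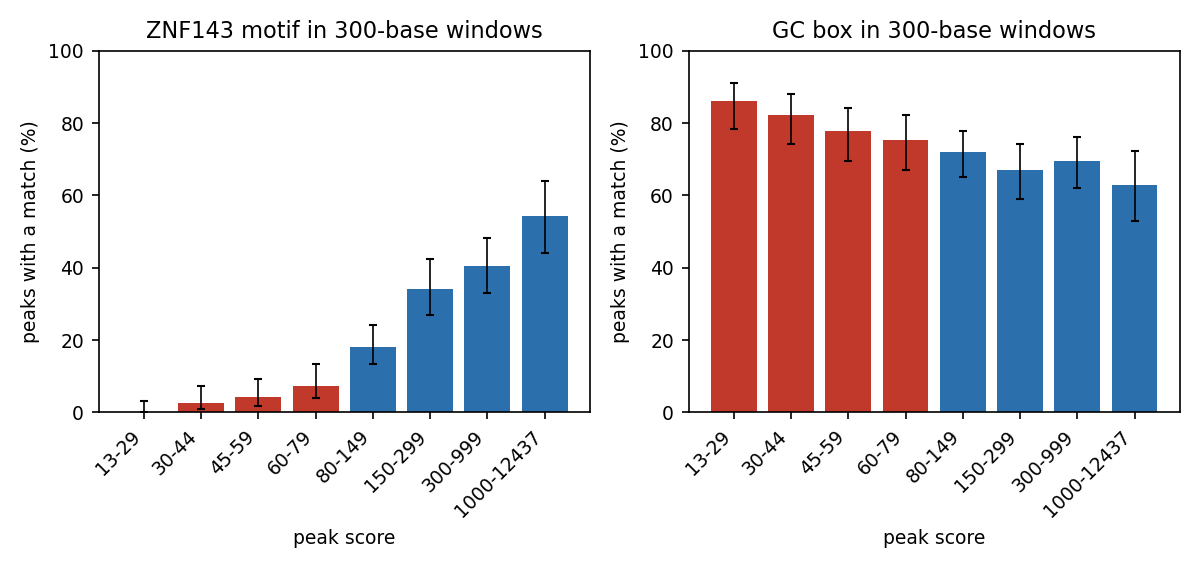
Share of start-site IR peaks, in percent, whose central 300-base window holds the ZNF143 core (left) or a GC box (right), by peak score, with members in red, higher-scoring peaks in blue and bars for 95% Wilson intervals. The ZNF143 share goes from 0% in the lowest class to 54.3% in the highest, and the GC box share from 86.0% to 63.0%.

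Of the other motifs, CCAAT boxes, bound by NFY, were less frequent in member windows (25.5%, 21.8 to 29.6) than in those of higher-scoring peaks (34.3%, 30.6 to 38.3) and of expressed start sites (32.3%). The ETS core CCGGAAG stood at 16.2% in members (13.2 to 19.8), 22.5% (19.3 to 26) in higher-scoring peaks and 19.0% round expressed start sites, so the intervals of the 2 classes of peak meet only at their ends. YY1 (AAGATGGC, 6.95%), E2F (GCGGGAA, 9.26%), E-boxes (CACGTG, 8.21%), NRF1 (GCGCATGC, 2.74%), AP-1 (TGANTCA, 2.74%) and the FOXO site GTAAACA (2.95%) had intervals that overlapped those of the higher-scoring peaks. The cAMP response element TGACGTCA was found in 1.26% of members and the TATA box TATAAA in 3.37%. Round expressed start sites NRF1 stood at 5.07% (4.68 to 5.5), above the member interval of 1.61 to 4.63. The cAMP response element stood there at 3.09% (2.79 to 3.43), above the member interval of 0.58 to 2.73. For YY1, E2F, E-boxes, AP-1, FOXO and the TATA box the intervals of members and expressed start sites overlapped. FOXO factors are turned off by insulin signalling, and the FOXO match in the RXRB window is 1 of the 14 among members.

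Most member windows were rich in CpG. By the criteria of at least 55% GC and an observed to expected CpG ratio of at least 0.6, 414 of 475 member windows (87.2%, 83.8 to 89.9) were CpG-rich, against 82.6% (79.3 to 85.4) of higher-scoring peaks, 84% of expressed start sites and 66.1% of all coding start sites. Per 1000 coding start sites, members were most frequent on chromosomes 20 (58.8), 6 (40.2), 16 (38.7) and 2 (34.6) and least on X (8.51), for a mean of 24.0 over the genome. HepG2 is known to carry extra copies of parts of some chromosomes. Copy number was not measured here, and its part in these rates was not tested. On chromosome 19, by contrast, 102 higher-scoring peaks stood beside 41 members.

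The nearest gene of 356 members (74.9%, 70.9 to 78.6) was protein-coding, compared with 83.8% (80.6 to 86.5) of higher-scoring peaks. Antisense RNAs were nearest to 56 members, long intergenic RNAs to 33 and miRNAs to 14. Of the 119 members with a noncoding nearest gene, 95 also had a coding start site within 1 kb, so that the nearest name was not the only candidate. The NFKBIA gene and the C16orf72 gene each had 2 member peaks. MRPL54, SP3 and AJUBA had a member peak and a higher-scoring one.

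Gene names led from 402 member peaks to 400 genes of the count table, 14 of the peaks through another symbol of the same gene. Of the 73 peaks without a match, 70 had a noncoding nearest gene. The gene positions deposited with the TPM values place the body of 12 matched genes more than 1 kb from the peak. Among them are ATXN7L3, BCL3 and ZNF775, and the match of these 12 to their peak is uncertain. Member genes were active: 367 of 400 (91.8%, 88.6 to 94.1) had a mean of at least 1 TPM over the 10 libraries, against 50.3% of the 26364 genes of the table and 95.5% (93.4 to 97.0) of genes with a higher-scoring peak. The median level was 29.9 TPM for member genes, 22.3 TPM for those of higher-scoring peaks and 1.06 TPM for all genes. Among coding genes alone the medians were 36.0 TPM for members and 23.6 TPM for higher-scoring peaks. Within the members the score and the level were all but unrelated across 398 genes with 1 member peak each (Pearson 0.132 and Spearman 0.114 between score and log2 TPM), a description over genes that share the same libraries.

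**Figure D3:**
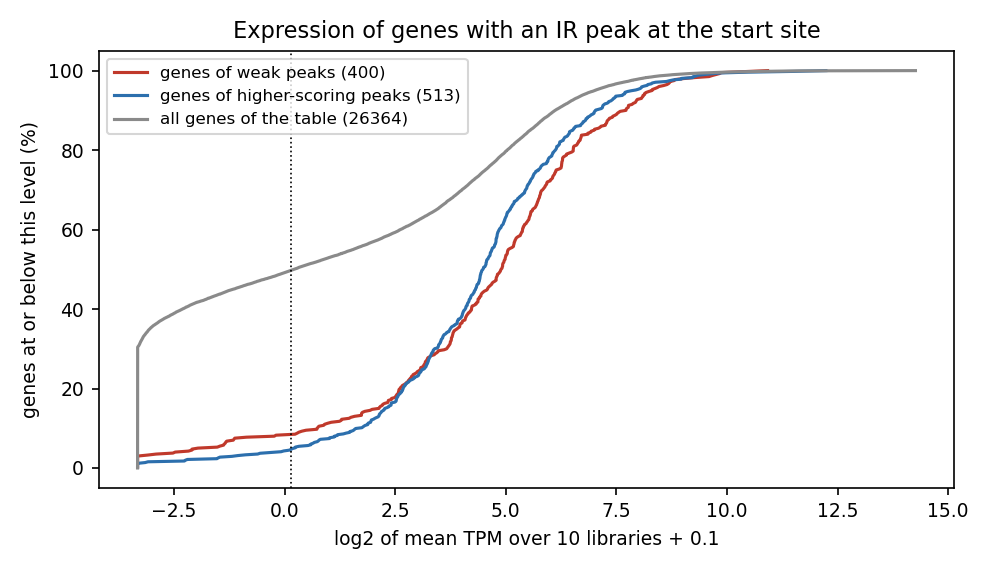
Cumulative share of genes in percent against log2 of the mean TPM over 10 libraries plus 0.1, for genes of member peaks (red), of higher-scoring start-site peaks (blue) and of the whole table (grey), with a dotted line at 1 TPM. The 2 sets with a peak lie far to the right of all genes, with medians of 29.9 and 22.3 TPM against 1.06 TPM.

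The 5 most abundant member genes were CALR (calreticulin, a chaperone of the endoplasmic reticulum, 1940 TPM), P4HB (protein disulfide isomerase, 1350 TPM), CST3 (the protease inhibitor cystatin C, 939 TPM), RPS3 (a ribosomal protein, 910 TPM) and SNX5 (an endosomal sorting nexin, 858 TPM). At the other end 16 member genes had under 0.1 TPM, 10 of them miRNA genes, whose mature products this kind of library does not capture well. The 5 members with the lowest score, 13, were at C16orf72, ING1, NONO, AP1S1 and VPS37D, with levels from 4.95 TPM for VPS37D to 411 TPM for the RNA-binding protein gene NONO.

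The RNA-seq libraries held 18347109 to 45005769 reads on genes, and 1.59% to 2.36% of the counts fell on ERCC spike-in RNA. All 11 hepatocyte markers were above 1 TPM, led by ALB, and leukocyte markers reached at most 0.779 TPM. ACTA2, listed here as a stellate cell marker, stood at 77.7 TPM. Replicates of a time were not the same library: over member genes the chi-square of their counts was 2.15 to 4.42 per degree of freedom.

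The comparison with 0 min asks how the genes at these peaks behaved after insulin. After the filter on low counts 371 of the 400 member genes were tested in edgeR's quasi-likelihood fit across 13852 genes, and every adjusted p is from this fit with Benjamini-Hochberg adjustment. At 5 min 0 member genes passed the threshold of 0.05 (background 0.0% of all genes), 65 had an unadjusted p under 0.05 (17.5%, against 14.3% of all genes), and DESeq2 called 0. At 10 min 0 passed (background 0.137%), 23 had an unadjusted p under 0.05 (6.2%, against 5.13% of all genes) and DESeq2 again called 0. At 30 min 2 genes passed, both higher (0.539%, against a background of 0.332% in either direction and 0.188% higher).

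NFKBIA encodes IkappaBalpha, the inhibitor that holds NF-kappaB in the cytoplasm and is itself an NF-kappaB target. In CPM, the normalised read count scaled to library size, the 0 min pair of libraries read 76.8 and 77.6, the 5 min pair 77.6 and 77.9, the 10 min pair 83.3 and 82.3, the 30 min pair 102 and 101 and the 240 min pair 112 and 106. Both replicates of 10, 30 and 240 min lay above both of 0 min. The log2 fold change was 0.39 at 30 min (standard error 0.05, adjusted p = 0.000336) and 0.50 at 240 min (standard error 0.05, adjusted p = 1.46e-07).

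KLF10, an early response gene whose product binds GC boxes, read 36.1 and 41.0 CPM in the 0 min pair, 42.0 and 46.9 in the 5 min pair, 43.5 and 47.6 in the 10 min pair, 48.2 and 52.5 in the 30 min pair and 47.4 and 45.4 in the 240 min pair. All 8 later libraries lay above those of 0 min, by a margin smaller than the gap between the 0 min replicates in the nearest. Its log2 fold change was 0.37 at 30 min (standard error 0.07, adjusted p = 0.0284) and 0.26 at 240 min (adjusted p = 0.00905). The 30 min call was lost without 0 min replicate 1 (adjusted p = 0.49) and without 30 min replicate 2 (adjusted p = 0.418), and the 240 min call without 0 min replicate 1 (0.106) or 240 min replicate 1 (0.0833). With libraries scaled to the ERCC spike-in, which moved the median of all genes by -0.13 at 30 min, neither KLF10 nor NFKBIA passed at 30 min (adjusted p = 0.911 each), with log2 fold changes of 0.25 and 0.26.

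At 240 min 163 of the 371 member genes passed (43.9%), against a background of 41.0% of all genes tested and 40.4% of the 497 tested genes of higher-scoring peaks. Of these, 76 (20.5%) were higher, against a background of 20.6%, and 87 (23.5%) were lower, against 20.4%. The member share was near the background in both directions, and the median log2 fold change was -0.02 for members and 0.00 for all genes. The ERCC scaling moved the median of all genes by -0.12 at this time, and left 24 member genes past the threshold, 2 higher and 22 lower. Changes below are relative to the bulk of genes.

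The median size of the log2 fold change at 240 min was 0.17 for member genes and 0.21 for all genes, 21 (5.66%) passed with a change of at least 1.5-fold against 8.63% of all genes, and 3 passed with at least 2-fold (0.809% against 2.45%), KLHL24, USP46-AS1 and the readthrough gene ANKHD1-EIF4EBP3. The last (-1.23) had a mean of 0.838 CPM, shares its exons with its parent genes, and lost its call under DESeq2 (adjusted p = 0.0548) and without 240 min replicate 1 (0.0933). By level, members passed in 18.0%, 32.9%, 60.2% and 49.0% of cases from the lowest to the highest of 4 equal classes of all tested genes, where all genes passed in 18.3%, 39.9%, 52.2% and 53.5%. The median size of change in the same 4 classes was 0.28, 0.18, 0.24 and 0.13 for members and 0.35, 0.21, 0.18 and 0.15 for all genes, so members moved more than all genes in the third class and less in the other classes. By score, the share was 29.5% of 78 genes at scores 13 to 29, then 51.1%, 47.0% and 46.0% in the next 3 classes.

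**Figure D4:**
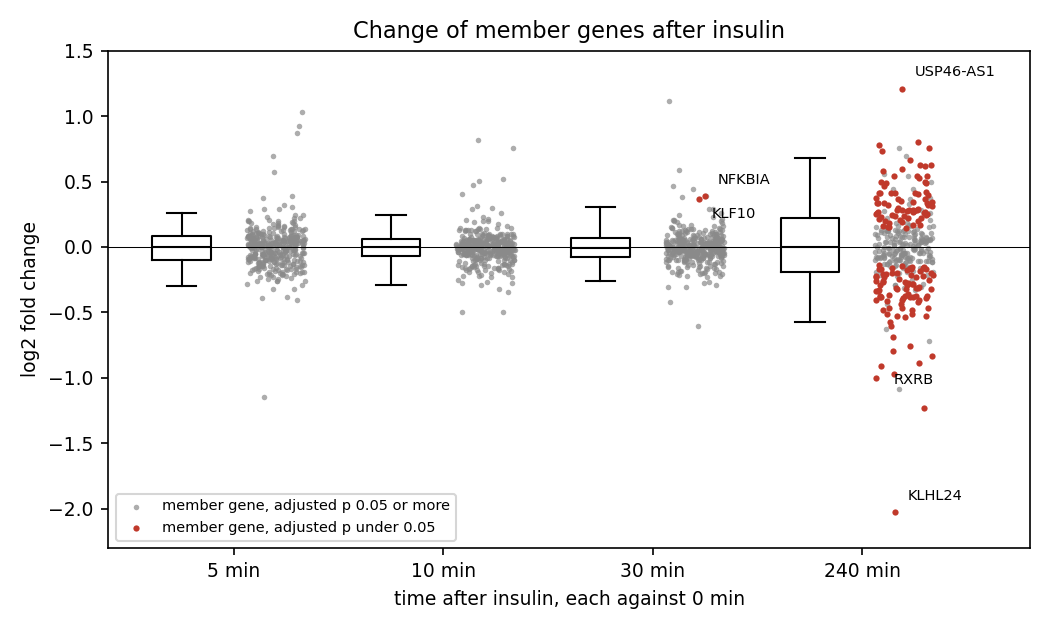
Log2 fold change against 0 min at each time after insulin, with boxes for all 13852 genes tested (quartiles, whiskers from the 5th to the 95th percentile) and points for the 371 member genes, red where the adjusted p was under 0.05. NFKBIA and KLF10 are the 2 red points at 30 min, and at 240 min 163 points are red, with KLHL24 lowest at -2.03.

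KLHL24, a kelch protein that directs a cullin ubiquitin ligase to its substrates, fell most. It read 34.1 and 40.9 CPM in the 0 min pair, 42.0 and 41.8 in the 5 min pair, 33.8 and 34.9 in the 10 min pair, 37.2 and 39.5 in the 30 min pair and 9.12 and 9.52 in the 240 min pair. The 8 libraries up to 30 min stayed between 33.8 and 42.0, and the 240 min pair stood at 0.245 of the 0 min level (log2 fold change -2.03, standard error 0.09, adjusted p = 7.02e-12).

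RXRB, the beta form of the retinoid X receptor that pairs with many nuclear receptors, read 42.2 and 42.6 CPM in the 0 min pair, 36.4 and 38.0 in the 5 min pair, 37.3 and 36.3 in the 10 min pair, 38.4 and 37.3 in the 30 min pair and 22.2 and 23.1 in the 240 min pair. All libraries after 0 min were lower than both at 0 min, but only the 240 min comparison passed the test (log2 fold change -0.91, standard error 0.06, adjusted p = 3.52e-09). The adjusted p was 0.252 at 5 min, 0.437 at 10 min and 0.437 at 30 min.

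The zinc finger gene ZNF345 went from 5.85 and 6.85 CPM at 0 min to 3.20 and 3.26 at 240 min (log2 fold change -0.999, standard error 0.16). FBXO33, an F-box subunit of a ubiquitin ligase, went from 48.3 and 52.7 to 28.8 and 28 CPM (-0.84, standard error 0.06). MXD4, a partner of MAX that opposes MYC, went from 65.0 and 70.2 to 41.7 and 42.8 CPM (-0.69, standard error 0.07). The naming rule required that the 0 and 240 min libraries of these 3 genes did not overlap. The other falls named by the rule were ZNF581 (-0.80), NFKBIL1, an inhibitor-like gene of the NF-kappaB family (-0.76), DTX2, a ubiquitin ligase of the Notch pathway (-0.58), ZNF740 (-0.53) and PIK3CA (-0.53). All passed at an adjusted p of at most 0.00344, that of DTX2, whose call was lost without 240 min replicate 1 (adjusted p = 0.103).

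Among called members of at least 5 CPM the leading rises were smaller than the leading falls. LINC01521, a noncoding RNA, went from 9.19 and 9.54 CPM at 0 min to 15.4 and 15.9 at 240 min, after 9.37 to 10.5 in the libraries between (log2 fold change 0.74, standard error 0.09, adjusted p = 3.29e-06). TMEM97, the sigma-2 receptor and a regulator of cholesterol transport, read 243 and 214 CPM in the 0 min pair and 360 and 340 in the 240 min pair (0.62, standard error 0.06, adjusted p = 8.83e-08). ODC1, the first enzyme of polyamine synthesis, read 252 and 215 CPM in the 0 min pair and 357 and 348 in the 240 min pair (0.60, standard error 0.06, adjusted p = 4.48e-07). The 240 min libraries lay above every earlier library in each of these genes.

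UBTF, which starts transcription of ribosomal RNA by RNA polymerase I, kept to 118 to 124 CPM through 30 min and reached 183 and 167 at 240 min (log2 fold change 0.54, standard error 0.05, adjusted p = 9.59e-08). DNMT3A, a DNA methyltransferase, went from 78.8 and 80.6 to 122 and 110 CPM (0.54, standard error 0.06). HNRNPAB, an RNA-binding protein, went from 146 and 138 to 233 and 204 CPM (0.63, standard error 0.06). The remaining rises named by the rule were TTC6 (0.67), C4orf46 (0.63), ZNF202, a zinc finger repressor of lipid transport genes (0.58), and ING2, a reader of histone methylation (0.54).

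**Figure D5:**
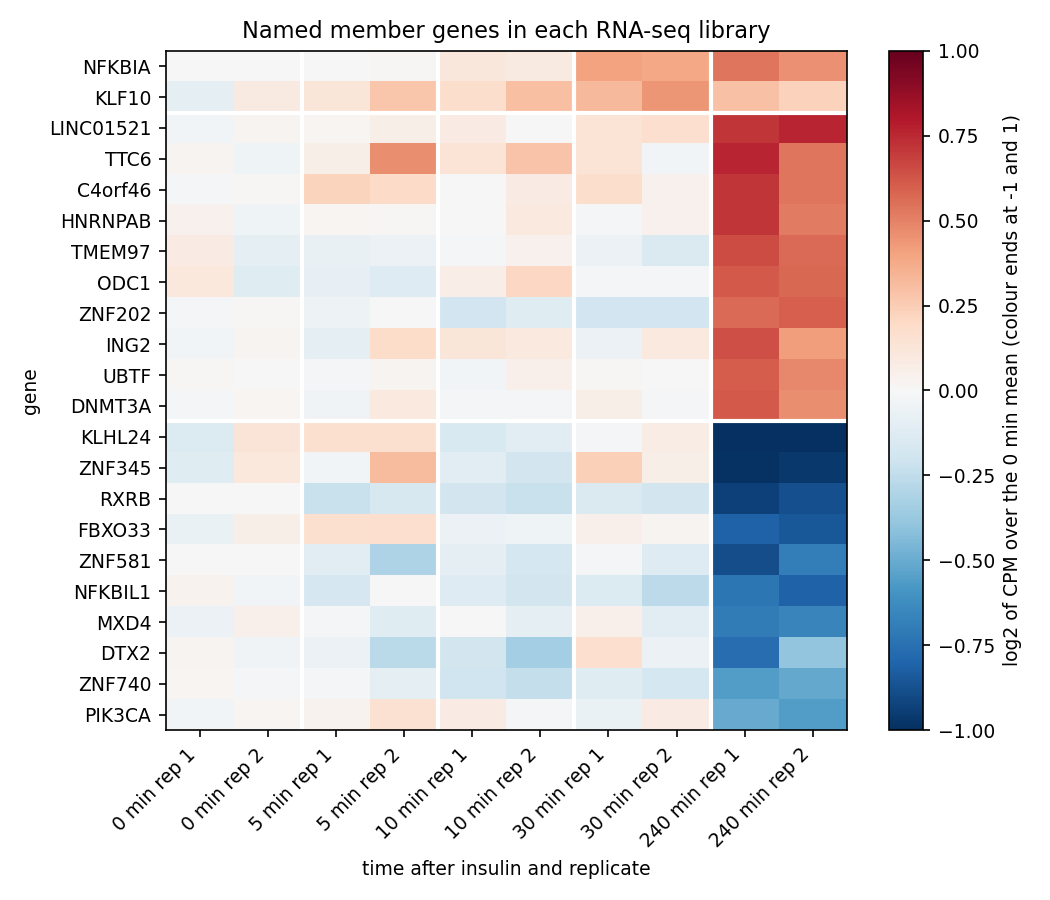
Colour shows log2 of each library's CPM over the 0 min mean for NFKBIA and KLF10 (top), the 10 largest rises (middle) and the 10 largest falls (bottom) at 240 min among called member genes of at least 5 CPM whose 0 and 240 min libraries did not overlap, in the 10 RNA-seq libraries. The 2 columns of 240 min stand apart from the 8 others in the lower 2 blocks, and NFKBIA is already raised at 30 min.

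Members were 371 of 13852 genes tested, and so could hold few of any short list. They held 2 of 67 tested insulin signalling genes, 0 of 24 lipogenic, 0 of 10 gluconeogenic and 0 of 97 DNA repair genes. PIK3CA, the catalytic subunit of the PI3-kinase that IR activates, read 32.4 and 33.5 CPM before insulin, 31.6 to 36.6 in the 6 libraries of 5 to 30 min, and 23.3 and 22.4 in the 240 min pair (log2 fold change -0.53, standard error 0.07, adjusted p = 1.25e-05). RPTOR, the scaffold of mTOR complex 1, fell by 0.18 on the log2 scale (adjusted p = 0.00722, and 0.0733 without 0 min replicate 2). Over all 67 tested genes of this list 52.2% were lower and 13.4% higher at 240 min.

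Chromatin regulators gave 12 member genes, of which 5 rose, 3 fell and 4 did not pass, with a median log2 fold change of -0.02 (over all 160 tested genes of the list, 24.4% rose and 30.0% fell). ING2, DNMT3A, EZH2, the methyltransferase of Polycomb complex 2 (0.27), ASH2L, a subunit of histone H3 methyltransferases (0.23), and CBX3, a heterochromatin protein (0.16), rose. The CBX3 call was lost without 0 min replicate 2 (adjusted p = 0.156) or 240 min replicate 1 (0.0728). CHD6, a chromatin remodeler, fell from a mean of 203 to 143 CPM (-0.51), as did KDM3A, a histone H3 demethylase (-0.51), and PHF10, a subunit of the SWI/SNF remodeler (-0.27).

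Of 28 C2H2 zinc finger genes among the members, 9 rose and 5 fell, with a median log2 fold change of 0.17. Over all 538 tested genes of this family 36.8% rose and 11.5% fell, with a median of 0.18. ZNF345, ZNF775 (-0.97) and ZNF581 fell most, and ZNF25 (0.78) and ZNF202 rose most. ZNF775 had 2.51 CPM on average.

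The 3 cytosolic ribosomal protein genes fell: RPS19 by 0.32, RPS23 by 0.16 and RPS3 by 0.15 on the log2 scale. Of all 83 such genes 39.8% fell and 3.61% rose. The call of RPS3 was lost without 0 min replicate 1 (adjusted p = 0.102), 0 min replicate 2 (0.0752) or 240 min replicate 2 (0.14), and that of RPS23 without 0 min replicate 1 (0.17) or 240 min replicate 2 (0.156). None of the 3 mitochondrial ribosomal protein genes passed (over the whole list of 79, 20.3% rose and 3.8% fell), nor did the respiratory chain gene NDUFB5 (of 92, 8.7% rose and 17.4% fell). Among 3 mitochondrial carrier genes SLC25A15, the ornithine carrier, rose (0.49), where 29.6% of the list's 71 genes rose and 5.63% fell.

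Of 4 members in the hepatocyte factor list 1 rose, 1 fell and 2 did not pass, where 14.6% of all 41 tested genes rose and 19.5% fell. ONECUT2, a homeobox factor, fell (log2 fold change -0.41, adjusted p = 4.43e-05), and CEBPB (-0.18, adjusted p = 0.0763) and PROX1 (-0.05, adjusted p = 0.531) did not pass. KLF10 was the one member on the immediate early list, of whose 27 tested genes 51.9% rose and 7.41% fell. Of 2 members in the general transcription list CDK19, a Mediator kinase, fell (-0.38) and GTF2A1 did not pass (0.04), where 25% of all 144 rose and 21.5% fell. That list had 11 genes at higher-scoring peaks.

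Of 9 members whose symbol fell in the splicing list, 1 of them the antisense RNA RBM26-AS1, HNRNPAB and HNRNPC (0.34) rose and RBM39 fell (-0.29), where 41.5% of all 205 tested genes of the list rose and 13.2% fell. Of 11 members whose symbol fell in the proteasome and ubiquitin list, FBXO45 (0.50) and the antisense RNA USP46-AS1 rose and FBXO33 and RNF103 (-0.17) fell, although RNF103 lost its call under DESeq2 (adjusted p = 0.0812) and without 0 min replicate 2 (0.525) or 240 min replicate 2 (0.216). Over that list 26.8% of 299 genes rose and 25.4% fell. Of 8 vesicle traffic genes 2 fell, SNX5 (-0.14) and AP1S1 (-0.22), near the list's share of 27.3% lower (9.77% higher, 256 genes). The SNX5 call was lost without 0 min replicate 1 (adjusted p = 0.0722), 0 min replicate 2 (0.0696) or 240 min replicate 1 (0.0716), and the AP1S1 call without the same 3 libraries (0.0699, 0.145 and 0.333) and under DESeq2 (0.0833). Of 4 chaperone genes BAG5 rose (0.22) and DNAJA1 fell (-0.20), where 24.4% of the list rose and 21.8% fell. Translation factors gave 3 members with 1 fall, EIF1 (-0.23), where 27.7% of the list rose and 21.5% fell. The tRNA synthetase gene FARS2 fell (-0.39, adjusted p = 0.00758, but 0.06 without 0 min replicate 2 and 0.0828 without 240 min replicate 1), where 18.9% of the synthetase genes rose and 18.9% fell. The cell cycle genes CDC42 and CENPL did not pass, nor did KIF9-AS1, an antisense RNA that the list took in by its symbol (over that list 29.3% rose and 19.7% fell). The 1 of 4 histone genes that could be tested did not pass either (10.3% of the list rose and 17.2% fell). Solute carriers gave 4 tested members, of which the zinc exporter gene SLC30A1 rose (0.34, but adjusted p = 0.0548 without 240 min replicate 2) and SLC35C2 fell (-0.28), where 17.2% of all 221 rose and 25.8% fell.

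Noncoding genes were tested at 26 of the 45 members on that list, and 5 rose and 1 fell, where 13.9% of all 617 tested genes of the list rose and 7.78% fell. Beside LINC01521 the rises were USP46-AS1, LPP-AS2 (0.81), TRAM2-AS1 (0.37) and THUMPD3-AS1 (0.32), and LPP-AS2 lost its call without 0 min replicate 1 (adjusted p = 0.0813) or 240 min replicate 1 (0.184). THUMPD3-AS1 lost it under DESeq2 (adjusted p = 0.0751) and without 0 min replicate 2 (0.44) or 240 min replicate 2 (0.204). USP46-AS1 rose most, from a mean of 1.58 to 3.79 CPM (log2 fold change 1.21, standard error 0.20, adjusted p = 8.32e-05), and LINC01132 fell (-0.89, adjusted p = 0.00728, and 0.0743 without 240 min replicate 1). The authors counted reads by strand, which keeps an antisense RNA apart from its partner.

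Many member peaks also lay at the start of a second gene. In 91 cases the peak had another tested coding gene with a start site within 1 kb, and the log2 fold changes of the 2 genes at 240 min were unrelated (Pearson 0.0421 and Spearman 0.0249 over 91 pairs, which share the same libraries). In 16 of the 91 pairs both genes passed, 8 in the same direction and 8 in opposite directions. Of all genes tested 41.0% passed singly at this time, and the share of pairs of other genes in which both pass was not computed. FOXA1, beside TTC6, rose with it (0.45, adjusted p = 1.93e-05), PATZ1, beside LINC01521, did not pass (0.02), and SLC39A7, a zinc transporter beside RXRB, fell less (-0.17, but adjusted p = 0.0627 without 0 min replicate 1). The antisense RNA IRAIN, at 0.158 TPM and without a call (0.15, adjusted p = 0.846), shares its member peak with the start region of IGF1R, the receptor closest to IR, which fell from a mean of 227 to 151 CPM (-0.59, adjusted p = 2.44e-08). IRAIN was named after its values were seen.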

How the data were processed

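RNA-seq and IR ChIP-seq of HepG2 were taken as deposited. The authors trimmed reads with Trim Galore, aligned RNA-seq reads with STAR and deposited read counts per gene from featureCounts and TPM per library from StringTie. For ChIP-seq the authors mapped 1 library on hg19 by means of BWA, had MACS2 call its peaks, and deposited peak positions, the peak score and HOMER's distance to the start site. Reads were single-end and counted by strand, in reverse orientation. The scale of the score is not given in the sources used here, and the ChIP input was not analysed here. Library protocol texts for RNA and ChIP samples stand under each other's samples in the labels, and the paper's methods were followed.

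Members were all peaks with an absolute distance of at most 1000 and a score of 79 or less. The members and gene lists were chosen with earlier results of these data known. Gene names were matched by symbol, or by RefSeq synonym and Ensembl identifier at the same place. Counts of 10 libraries were fitted in edgeR 4.0.16 (R 4.3.3) with TMM scaling, filterByExpr and a quasi-likelihood test per time against 0 min over 13852 genes, without the 92 ERCC rows. Genes were called at an adjusted p under 0.05. The fit was tested on simulated data. Named genes were, at 240 min, the 10 largest rises and falls among called members with at least 5 CPM on average and no overlap with 0 min, up to 5 each way at earlier times, the 5 highest by TPM, the 5 lowest-scoring peaks, members of 6 core lists and up to 3 of each other list. Windows of 300 bases at the peak centre, and round GENCODE coding start sites, were searched on both strands for exact matches. Alternatives were DESeq2 1.42.0, RLE and ERCC scaling, no filter, only the times compared, a replicate block, each replicate left out, and other limits and windows. Some members of the gene lists are not reported here.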

Additional observations from a re-analysis of the deposited data

How the results depend on the processing

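Counts of called member genes moved by over 1.5 times as follows. Without a filter on low counts 7 member genes passed at 5 min and 8 at 30 min. With ERCC scaling 0 passed at 30 min and 24 at 240 min, all 24 among the 163 called before. At 30 min 5 passed with a replicate block and 1 of the genes with a start site inside a member peak, and leaving out a replicate gave 1 to 4 (1 without 0 min replicate 1 or 30 min replicate 2, 4 without 30 min replicate 1). At 240 min a score limit of 40 left 57 of 148 tested genes (38.5%). At that time DESeq2 called 141 of the 371 member genes, all among the 163, and 4438 of all 13852 genes tested. For the other settings no share over all genes is given beside the member counts.

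The replicate numbers are not said to mark a shared culture, and deviations of same-numbered libraries correlated weakly with those of 0 min (-0.0364 to 0.113 over 13852 genes). With the replicate block 167 member genes passed at 240 min, including all 163.

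Medians of member genes moved past the spread between replicates (0.00691) with ERCC scaling, to -0.079 at 5 min, -0.331 at 10 min, -0.134 at 30 min and -0.139 at 240 min, as did those of all genes (-0.083, -0.326, -0.134 and -0.119). With RLE the 5 min median was 0.012, and without a filter that of 240 min was -0.014. Leaving out a replicate gave -0.007 to 0.006 at 5 min and -0.015 to 0.006 at 30 min. With a limit of 5 TPM 83.0% of member genes counted as expressed.

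Motif shares follow the length searched. In 200 bases they were 67.6% for the GC box, 7.58% for ETS, 4.21% for YY1, 18.1% for CCAAT, 5.26% for the E-box, 6.95% for E2F, 1.89% for ZNF143 and 1.47% for FOXO, and in whole peaks 88.8% for the GC box, 22.5% for ETS, 33.3% for CCAAT, 11.2% for the E-box, 13.5% for E2F and 4.84% for AP-1. The second ZNF143 string, ACANNTCCC, gave 9.05%, which is not a relaxed count of the core. At higher-scoring peaks the ZNF143 core stood at 28.1% in 200 bases and 39.3% in whole peaks, and the GC box at 53.1% and 83.6%.

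With ERCC scaling 31 of 68 named results lost their call. Of the named genes, those that changed sign had not passed the test. With ERCC scaling log2 fold changes at 240 min were -0.054 for CALR, -0.083 for CST3, -0.076 for GTF2A1, -0.088 for HIST1H1C, -0.054 for CENPL and -0.049 for CDC42. Leaving out a replicate gave -0.031 to 0.096 for CST3, -0.106 to 0.016 for PROX1, -0.094 to 0.17 for HIST1H1C, -0.003 to 0.266 for KIF9-AS1 and -0.015 to 0.128 for CENPL. The cause of these moves was not tested. Depth limits rare transcripts: 29 member genes had too few counts to be tested.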

Other observations

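Some families among the member genes were put together after their values had been seen, and are given as a description. They hold member genes only, so other genes of a family give no comparison. For each family in this section the background at 240 min was 20.6% of all genes tested higher and 20.4% lower. The match of BCL3 to its peak is uncertain, as given above. Regulators of NF-kappaB formed a group of 7: NFKBIA and BCL3, a nuclear member of the IkappaB family (log2 fold change 0.53 at 240 min, 4.80 to 6.95 CPM in the means), rose, NFKBIL1 and TNIP2, a partner of the inhibitor A20 (-0.29), fell, and RNF31, MAP3K8 and TBKBP1 did not pass (0.12, 0.12 and -0.02). TNIP2 lost its call without 240 min replicate 1 (adjusted p = 0.0521). Among proteins of the liver and the secretory path 6 of 11 fell and 0 rose at 240 min (20.4% and 20.6% of all genes tested), a group picked with these values known, with HNMT, which breaks down histamine (-0.53, from 316 and 331 to 235 and 214 CPM), and APOM, the apolipoprotein that carries sphingosine phosphate (-0.44), in front. APOM read 196 and 176 CPM before insulin and 133 to 165 in all 8 later libraries, and its change at 30 min missed the threshold (-0.31, adjusted p = 0.0876). LSR (-0.31), ASGR1 (-0.22), FCGRT (-0.21) and P4HB (-0.15) were the other falls. FCGRT lost its call without 0 min replicate 2 (adjusted p = 0.0623) or 240 min replicate 2 (0.0736), and P4HB without 0 min replicate 1 (0.201), 240 min replicate 1 (0.0539) or 240 min replicate 2 (0.0993). RBP4, FAH, CST3, CALR and the asialoglycoprotein receptor subunit ASGR2 did not pass at 240 min.

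Of 19 sequence-specific factors at member peaks, grouped in the same way, 6 rose, 6 fell and 7 did not pass at 240 min. Among them CTCF, the insulator protein, rose (0.37, from 112 and 115 to 147 and 147 CPM), YY1 fell (-0.38), and SP1 (-0.08) and SP3 (0.04) did not pass. In the TGF-beta and activin pathway the receptor gene ACVR2A (0.28) and SMAD2 (0.21) rose, and CTGF (-0.26) and SMURF2 (-0.17) fell. ACVR1 and CITED2 did not pass. The ACVR2A call was lost without 240 min replicate 1 (adjusted p = 0.0687), that of SMAD2 without 0 min replicate 2 (0.0529), and that of SMURF2 without 0 min replicate 1 (0.0691), 0 min replicate 2 (0.165) or 240 min replicate 1 (0.353) and under DESeq2 (0.085). Of the nuclear import genes KPNB1, which encodes importin beta, rose (0.22), and IPO5 (0.01) and KPNA1 (0.12) did not pass. Among mitochondrial genes SLC25A15 rose, and BNIP3L, a mitophagy receptor (-0.26), and SOD2, the superoxide dismutase of mitochondria (-0.14), fell. SOD2 lost its call without 0 min replicate 1 (adjusted p = 0.0726), 0 min replicate 2 (0.0948) or 240 min replicate 2 (0.175).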
